A study of Mus musculus with 2 samples.

Results

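The genes described here are the hypoxia-inducible factor (HIF) subunits and the enzymes and ligase component that tie HIF to oxygen. They are Hif1a, Epas1, Hif3a, Arnt, Arnt2, Egln1, Egln2, Egln3, Vhl and Hif1an, 10 of the 18194 genes that the array names. Their members on the array are all 30 probe sets, of 45101, whose single gene symbol in the platform annotation is 1 of these names. No probe set with several symbols carries any of them. The genes were chosen with the difference between these same arrays in view, so their values are a description and carry no test.

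The study used C2C12 cells, a mouse myoblast line that fuses into myotubes when serum is lowered. A group labelled shLrrfip1a, a hairpin against Lrrfip1, was set against a control hairpin spelled shLCUI in the sample labels, and both were read after 5 days in 2% horse serum on 1 Affymetrix array each. With 1 array per group there is no spread between cultures, so no standard error or p-value can be given and a difference is described by its size alone. Whether either line is 1 clone or a pool is not given in the sources used here. The targeted gene read lower on all 3 of its probe sets, at 375 against 531, 108 against 160 and 292 against 469 in the control.

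HIF is a pair of proteins, an oxygen-labile alpha subunit and a stable beta subunit, that binds DNA at hypoxia response elements. When oxygen is present, the prolyl hydroxylases encoded by Egln1, Egln2 and Egln3 hydroxylate the alpha subunits, and the protein encoded by Vhl then marks them for the proteasome. The asparaginyl hydroxylase encoded by Hif1an blocks their contact with coactivators. This control acts mainly on the protein, which an array of RNA does not measure, while Egln3 and, less so, Egln1 are themselves well-known targets of HIF. In muscle the pathway is known for its part in glycolysis and in the growth of vessels.

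Levels below are deposited intensities in linear units, and each difference is the log2 of (intensity + 16) in shLrrfip1a minus that in the control. A probe set was taken as above the level filter when its mean over both arrays was over 52.5, the median intensity of the array's probe sets. That left 18 of the 30 member probe sets, and 9 of the 10 genes by their brightest probe set, with Epas1 below it. Levels of different probe sets depend on their sequences and were not compared with each other.

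The 2 arrays had medians of 53.5 and 51.4. Between 3-prime and 5-prime control probe sets, the log2 ratio for Gapdh was -0.04 on the shLrrfip1a array and 0.00 on the other, and for beta-actin it was 0.52 and 0.74. The 8 muscle markers all lay above the filter, with summed intensities of 12921 in shLrrfip1a and 13855 in the control. Their differences were mixed, from 0.56 for Myod1 (894 against 602) to -0.38 for Myog (2005 against 2612), both regulators of muscle differentiation, with 3 of the 8 higher and 5 lower. Of the 5 fibroblast markers, summed at 12784 and 9818, Dcn was the 1 past 2-fold (3497 against 260). The other 4 summed to 9287 and 9557, with Col1a1 at -0.42, Pdgfra at -0.35, Thy1 at 0.11 and Col3a1 at 0.05. A second Pdgfra probe set above the filter differed by 0.20. Of 4 endothelial markers, summed at 197 and 115, Kdr read 118 against 48.0 (1.07) and Cdh5, Pecam1 and Tek lay below the filter. The control reading of Kdr was itself below the filter level, so Kdr passed only through the shLrrfip1a array. The macrophage markers summed to 241 and 236, with Ptprc and Cd68 below the filter, and the 3 measured adipocyte markers to 42.6 and 50.7, all below it. The part of these shifts in the results was not tested. In RNA from a whole culture, fewer cells of a type and less RNA per cell cannot be told apart.

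Hif1a encodes the widely expressed alpha subunit. Its brightest probe set, 1427418_a_at, read 1618 in shLrrfip1a and 1701 in the control (difference -0.07). Probe set 1448183_a_at read 226 against 296 (-0.37), and 1416035_at read 142 against 164 (-0.19). All 3 probe sets above the filter were thus lower in shLrrfip1a, with a mean difference of -0.21 ± 0.15 (SD over the 3 probe sets, which read 1 RNA and are not replicate cultures). The brightest one turned to 0.11 when the arrays were scaled to the spike-in controls. The fourth, 1431981_at, was dim on both arrays (23.1 and 19.3).

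Epas1 encodes the alpha subunit of HIF-2, first described in endothelium. Both of its probe sets were dim, at 45.6 against 41.0 (0.11) and at 11.8 against 22.8 (-0.48). The second difference is carried by low values, and it ran from -0.89 with a pseudocount of 1 to -0.19 with 64. No direction can be given for Epas1 from these readings.

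Hif3a encodes the third alpha subunit, which has splice forms that act against the other two. Its brightest probe set, 1425428_at, read 141 against 114 (0.27). The other one above the filter, 1425429_s_at, differed the opposite way at 53.9 against 75.1 (-0.38). Only 2.24% of the 2863 genes with exactly 2 probe sets above the filter had a wider gap between them than the 0.65 of Hif3a. The suffix _s_at marks a probe set that can bind several transcripts. The remaining 4 Hif3a probe sets lay below the filter, between 7.41 and 33.1, and differed by -0.11 to 0.30.

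The beta partners showed small differences. Arnt, the common partner of the alpha subunits and of the dioxin receptor, read 279 against 282 on its brightest probe set, 1419996_s_at (-0.02). Its next probe sets read 205 against 179 (0.18) and 55.5 against 61.1 (-0.11), and the 2 below the filter differed by 0.22 and 0.18. Over the 3 probe sets above the filter the mean was 0.02 ± 0.15 (SD over probe sets), so their signs were mixed around 0. Arnt2, a paralog best known from neurons, read 87.7 against 79.5 (0.12), and its 2 dim probe sets were also higher in shLrrfip1a, by 0.13 and 0.32.

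**Figure D1:**
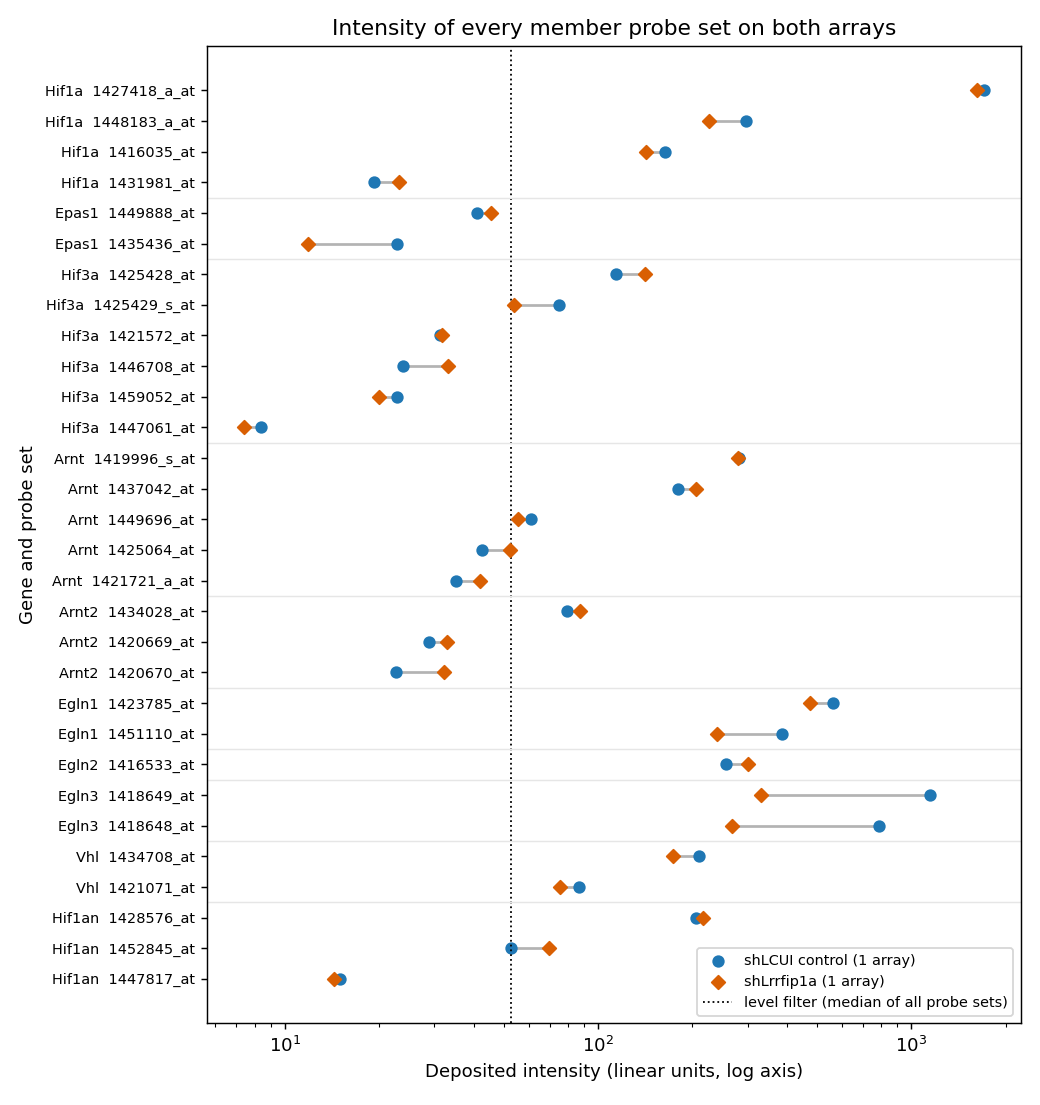
Deposited intensity (log axis) of each of the 30 probe sets on the shLrrfip1a array (diamonds) and the control array (circles), grouped by gene, with the level filter as a dotted line. The 2 Egln3 probe sets show the widest separation among those above the filter, at 332 against 1146 and 268 against 790.

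Of the prolyl hydroxylases, Egln3 differed by far more than the others. Its product, also called PHD3, is the hydroxylase whose RNA is known to respond strongly to HIF. Probe set 1418649_at read 332 in shLrrfip1a and 1146 in the control, 29.0% of the control value (difference -1.74). Probe set 1418648_at read 268 against 790, or 33.9% (-1.51). Both were lower in shLrrfip1a, by -1.62 ± 0.17 on average (SD over probe sets). Of the 11439 genes above the filter, 16 had a lower difference than Egln3.

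Egln1 encodes PHD2, the main hydroxylase of Hif1a protein in normal oxygen. Its probe sets read 474 against 561 (-0.24) and 239 against 385 (-0.65), so both were lower in shLrrfip1a and neither reached 2-fold. The gap of 0.42 between them was exceeded in 8.84% of genes with 2 probe sets above the filter. With spike-in scaling the 2 differences came to -0.06 and -0.48.

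Egln2, which encodes PHD1, differed the other way. Its single probe set read 300.3 against 256 (0.22), and spike-in scaling made this 0.40. The 3 hydroxylase genes thus spread over a range from 0.22 for Egln2 to -1.74 for Egln3.

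The promoters of the 3 hydroxylase genes are shown because these genes differed so unequally and because hypoxia response elements hold the core ACGTG. The sequences are RefSeq's, build GRCm38.p6, written 5′ to 3′ on the gene's strand, with the core or its reverse complement CACGT in capitals. Each is a stretch around the match, cut from the 250 bases before the gene's start. Those of Car9 and Bnip3, HIF target genes described further on, are set beside them because they hold the core, so holding it is no result. Of the other targets past 2-fold, the windows of Car12 and Igfbp3 held no ACGTG before the start. That of Ero1a held 1 and is not shown. The Car12 and Igfbp3 windows are not at the genes' annotated starts.
Egln1 (chr8:124949278-124949362, minus strand, core at position -68): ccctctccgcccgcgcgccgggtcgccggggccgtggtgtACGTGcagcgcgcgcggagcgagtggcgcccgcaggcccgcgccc
Egln2 (chr7:27166806-27166890, minus strand, core at position -48): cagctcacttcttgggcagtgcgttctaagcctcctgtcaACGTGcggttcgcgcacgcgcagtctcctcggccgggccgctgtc
Egln3 (chr12:54204059-54204124, minus strand, core at position -229): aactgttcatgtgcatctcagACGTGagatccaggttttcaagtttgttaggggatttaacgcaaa
Car9 (chr4:43506968-43507025, plus strand, core on the other strand at position -18): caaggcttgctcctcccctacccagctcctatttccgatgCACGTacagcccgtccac
Bnip3 (chr7:138909569-138909653, minus strand, core at position -107): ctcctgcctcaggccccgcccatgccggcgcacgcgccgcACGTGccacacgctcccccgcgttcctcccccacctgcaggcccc

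Both strands were searched for ACGTG and for GCGTG, the other form of the core. In the 250 upstream bases Egln1, Egln2 and Egln3 held 1 ACGTG each at the gene's start, and GCGTG was found 1, 3 and 0 times. A second Egln2 window, at another start, held no ACGTG and 1 GCGTG. The Hif1a window, which is not at the gene's annotated start, held 3 matches. Of these, 2 are the strands of 1 CACGTG, which reads the same both ways and is also the site of other bHLH factors. Bnip3 held that palindrome too.

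The windows of Hif3a, Arnt, Arnt2, Vhl and Hif1an held no ACGTG before the start, though those of Arnt and Arnt2 are not at the annotated start. Of 9 members with a window, 4 thus had the core, and so had 25.5% of the 9218 genes above the filter with a window. Counted by window it stood in 4 of the members' 10 and in 16.6% of all 32851 (GCGTG 28.2%, CACGTG 6.02%). The core was present both in Egln2, which read higher, and in Egln1 and Egln3, which read lower. A match only says that the letters are there.

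Vhl encodes the substrate receptor of the ligase that removes hydroxylated alpha subunits. It read 173 against 210 on 1434708_at (-0.26) and 75.4 against 86.8 on 1421071_at (-0.17). Both probe sets were lower in shLrrfip1a, with a gap of 0.09, and 13.8% of genes had a lower difference than its brightest one. Spike-in scaling brought them to -0.09 and -0.01.

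Hif1an encodes the asparaginyl hydroxylase FIH. It read 217 against 205 on its brightest probe set (0.07) and 69.5 against 52.6 on the next (0.32), so both above the filter were higher in shLrrfip1a. Its other one, 1447817_at, was dim on both arrays (-0.03).

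Across the set, 2 of the 30 probe sets were at least 2-fold lower in shLrrfip1a, both of Egln3, and none was 2-fold higher. Among all 45037 non-control probe sets, 0.351% were that much lower and 0.353% higher. By 1 probe set per gene, 1 of 9 members was at least 2-fold lower, where 0.691% of genes above the filter were, and 0 were higher, against 0.664%. Since the genes were picked on this contrast, nothing is read from these counts. The median difference of the 9 was -0.02, beside 0.00 over all genes. Apart from Egln3 and 1 Egln1 probe set, every member probe set lay within 0.5 of 0, and 92.6% of genes did.

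**Figure D2:**
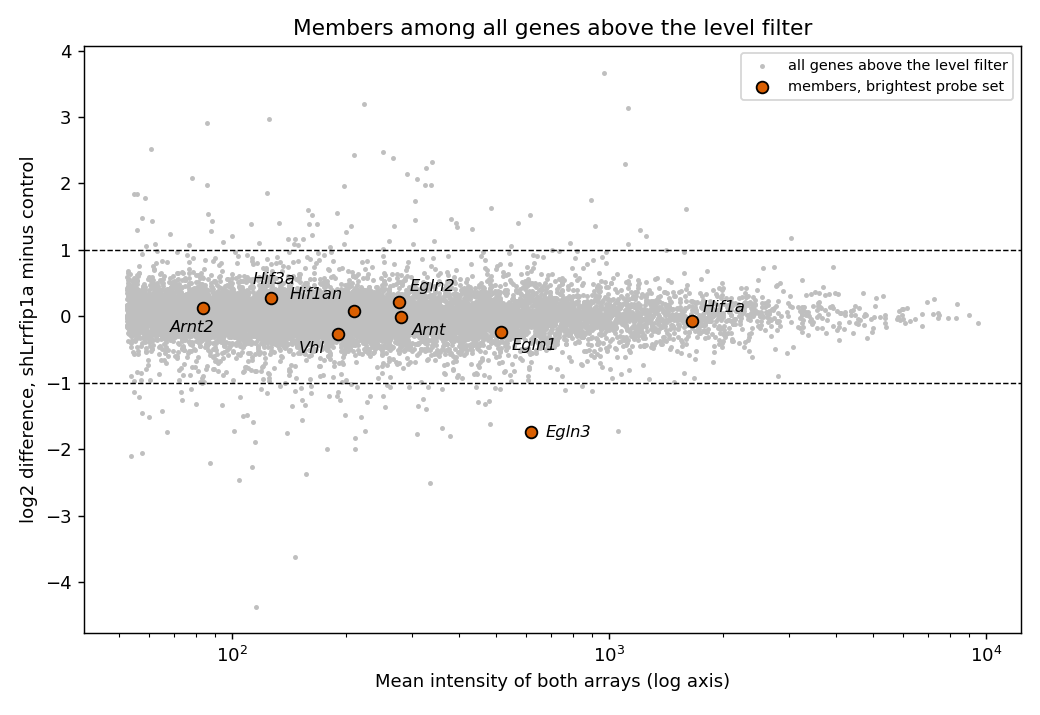
Difference (log2, shLrrfip1a minus control) against the mean intensity of both arrays (log axis) for the 11439 genes above the filter (grey) and the 9 members above it (orange, brightest probe set), with dashed lines at 2-fold. Egln3 lies at -1.74 and the other 8 between -0.26 and 0.27.

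The scaling of the arrays mattered for the small differences and not for Egln3. Scaling to the 42 bacterial and phage spike-in probe sets moved the median of all genes up by 0.17, and it turned the sign of 5 member probe sets. These were the brightest Hif1a one, 2 of Arnt, 1 dim one of Hif3a and 1 dim one of Hif1an. Another dim Hif3a probe set turned under the other 3 scalings, and the remaining 24 kept their sign under all 4 scalings and both pseudocounts. The Egln3 probe sets ran from -1.79 to -1.56 and from -1.56 to -1.33 over these settings.

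**Figure D3:**
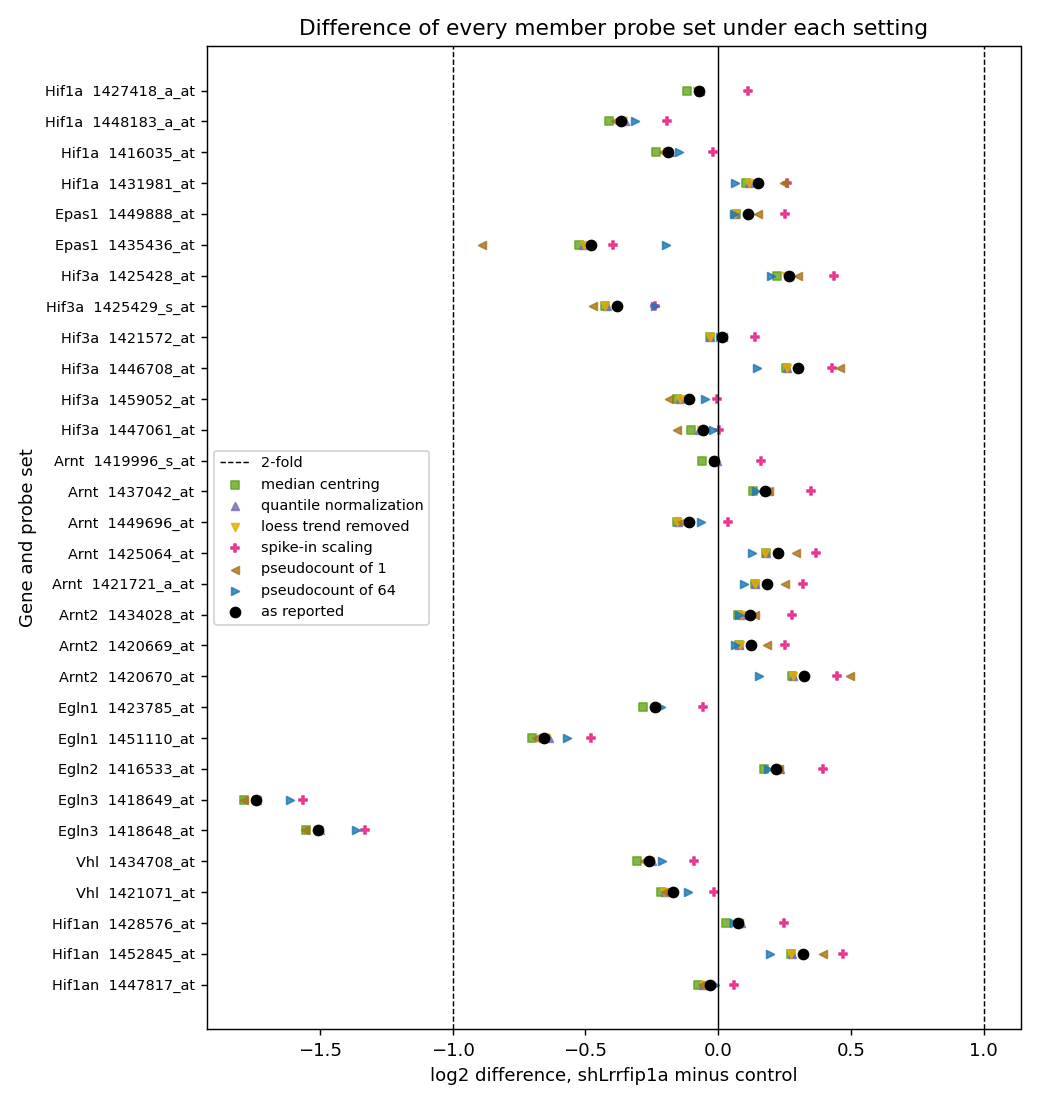
Difference (log2, shLrrfip1a minus control) of each of the 30 probe sets as reported (black) and under 4 other scalings and 2 other pseudocounts (coloured symbols), with dashed lines at 2-fold. Spike-in scaling shifts all 30 probe sets to the right, and both Egln3 probe sets stay beyond -1 in every setting.

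Of 35 listed partners of the hydroxylases, of Vhl and of HIF, 28 lay above the filter and their median was 0.01 (0.19 with spike-in scaling). None reached 2-fold, which few genes did in any case (0.664% higher and 0.691% lower), so the count of 0 is near the background. The largest difference was that of Sat1, a polyamine acetylase reported to bind HIF alpha protein (1421 against 2041, -0.52). The paralogous coactivators Crebbp (576 against 415, 0.46) and Ep300 (534 against 386, 0.45), which HIF recruits, read higher. The other Crebbp probe sets above the filter differed by 0.35, 0.22 and -0.01. Senp1, which removes SUMO from HIF alpha protein, read 124 against 87.5 (0.44). In the Vhl ligase itself, the scaffold Cul2 differed by 0.04 and the elongins Elob and Eloc by -0.21 and -0.05. The sign of Eloc turned with spike-in scaling and that of Cul2 with median centring. The ring protein Rbx1 differed by 0.31.

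The bHLH-PAS family, to which the HIF subunits belong, was measured by 17 other genes. The 13 above the filter had a median of 0.03 (0.21 with spike-in scaling). None reached 2-fold, again near the background of 0.664% higher and 0.691% lower. Ahr, the dioxin receptor and another partner of Arnt, read 326 against 599 (-0.85), with a second probe set dim at 20.7 and 20.8. Npas3, a factor of the nervous system, read 161 against 98.8 (0.63), while its 3 other probe sets were dim. Ncoa3 (0.30) and the clock factor Arntl (-0.27) followed.

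The hydroxylases belong to the 2-oxoglutarate oxygenases, which use oxygen and iron. The 49 other members of that family above the filter had a median of 0.04 (0.21 with spike-in scaling). None reached 2-fold, a count also near the background of 0.664% and 0.691%. P4ha2, a subunit of the collagen prolyl hydroxylase, read 399 against 746 (-0.88), and its relative P4ha1 read 954 against 1289 (-0.43). Both, with Plod1, Plod2 and Kdm3a, are also on the list of HIF target genes described below, so the lists are not separate. The third form, P4ha3, read higher at 262 against 167 (0.60). The RNA demethylase gene Fto differed by 0.41. In the same family Egln3 had the lowest difference, with P4ha2 next.

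Genes known to be induced by HIF were mostly lower in shLrrfip1a. Of 60 listed, 53 were measured and 50 lay above the filter, and 41 of the 50 were lower, where 49.3% of all genes were. Their median difference was -0.32, 17 were at least 1.5-fold lower, against 2.47% of all genes, and 1 was that much higher, against 2.34%. At 2-fold, 4 were lower (Car9, Car12, Bnip3 and Ero1a) and 1 was higher (Igfbp3), beside 0.691% and 0.664% of all genes. Car12 and, at 1.5-fold only, Adm are counted as lower although their shLrrfip1a readings (35.1 and 37.8) lay below the filter level. Their means passed the filter only through the control readings (267 and 80.0), so the size of these 2 differences rests on a dim reading. The list was drawn up with earlier results on these arrays known, so its direction is not independent evidence.

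The carbonic anhydrase Car9, whose induction by HIF is a textbook case, read 131 against 823 (-2.52). Its relative Car12 read 35.1 against 267 (-2.47), but its 2 other probe sets were dim on both arrays (32.7 and 30.5, then 6.69 and 10.6). Bnip3, a receptor for the removal of mitochondria, read 570 against 1929 (-1.73), close to the difference of Egln3. Ero1a, an oxidase that forms disulfides in the endoplasmic reticulum, read 337 against 732 (-1.08), with -0.75 and -0.72 on its other probe sets. Its call at 2-fold ended with spike-in scaling (-0.90) and with a pseudocount of 64 (-0.99). Igfbp3, which binds insulin-like growth factors, was higher on both of its probe sets (613 against 97.9, 2.47, and 467 against 83.0, 2.29).

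Below 2-fold, Pfkp, a phosphofructokinase, read 182 against 340.2 (-0.85), with -0.46 on another probe set. The vasodilator peptide gene Adm read 37.8 against 80.0 (-0.84). Higd1a, of the mitochondrial inner membrane, differed by -0.81 on its brightest probe set and by -0.28 and -0.09 on others. Ndrg1, a marker gene of hypoxia, read 758 against 1323 (-0.79) and was lower on all 4 of its other probe sets. Vegfa, the main growth factor of vessels, read 278 against 475 (-0.74), with -0.51 on another probe set. Mxi1, an antagonist of Myc, differed by -0.68, with -0.45 on another probe set.

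**Figure D4:**
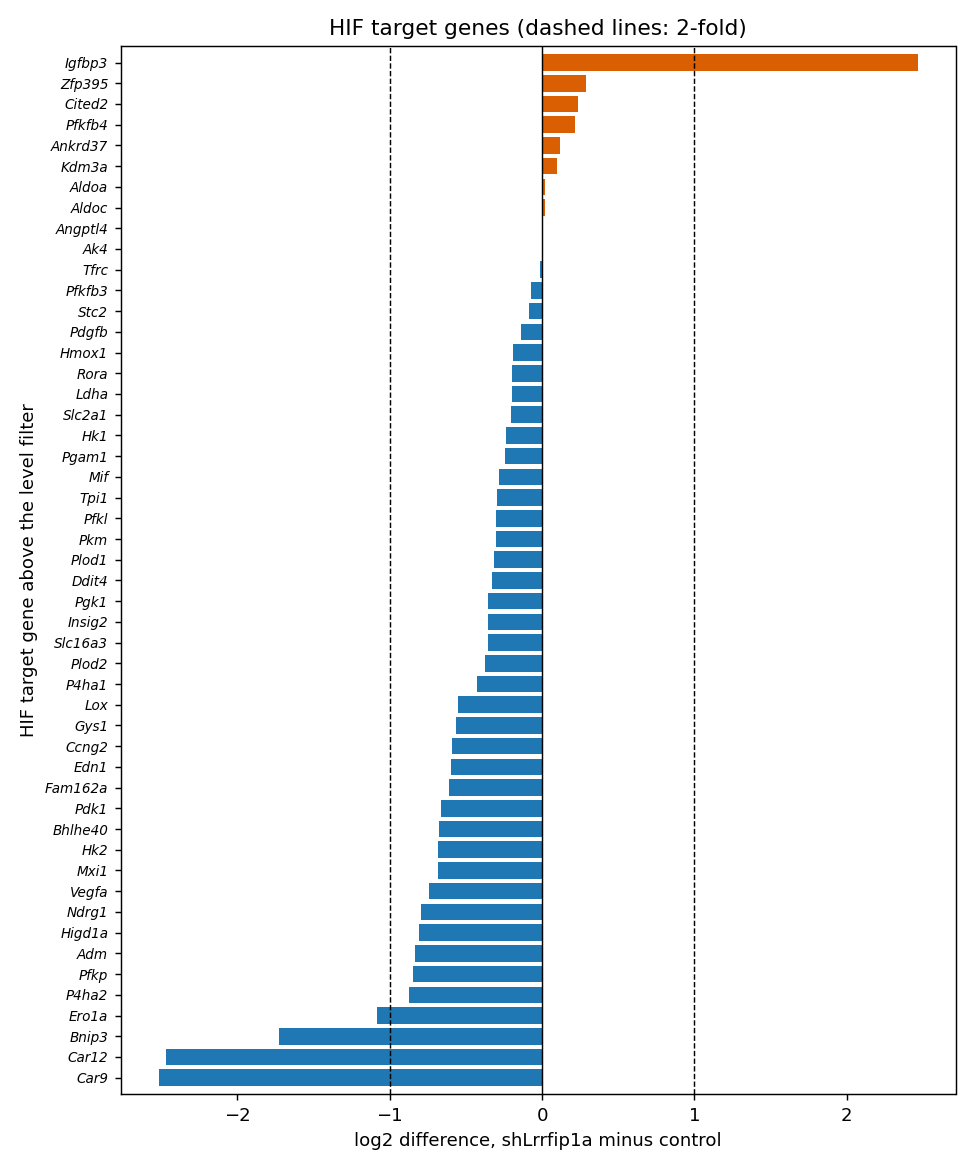
Difference (log2, shLrrfip1a minus control) of the 50 HIF target genes above the level filter, 1 bar per gene from its brightest probe set, with dashed lines at 2-fold. Bars to the left of 0 are lower in shLrrfip1a (41 genes), and Igfbp3 at 2.47 is the 1 bar past 2-fold on the right.

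The targets were also grouped by what they do, after their values were seen, so the group counts are a description only. Of all genes above the filter, 49.3% were below 0 (22.8% with spike-in scaling) and 2.47% were at least 1.5-fold lower. The 5 mitochondrial genes above the filter had a median of -0.67, and 4 of them were at least 1.5-fold lower. With spike-in scaling 4 of the 5 stayed below 0. Among them was Pdk1, a kinase that holds pyruvate back from the mitochondria (308 against 497, -0.67). All 6 genes that modify collagen or form disulfides were lower (median -0.49), with spike-in scaling too. Of 16 genes of glucose uptake, glycolysis and glycogen, 13 were lower (12 with spike-in scaling), with a median of -0.27 and a lowest value of -0.85. In this group Slc2a1, a glucose transporter, differed by -0.21 and Ldha, a lactate dehydrogenase subunit, by -0.20. Of 8 secreted factors 6 were lower, and 4 with spike-in scaling.

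The 7 transcription and chromatin regulators were divided, with 3 lower and 4 higher under either scaling. Bhlhe40, a repressor of the clock, read 685 against 1107 (-0.68), whereas Kdm3a, a histone demethylase, read 414 against 387 (0.10) and Cited2, which competes with HIF for coactivators, read 1374 against 1167 (0.23). Rora, a nuclear receptor, differed by -0.20 on its brightest probe set. Its 5 others above the filter differed by -1.46, -1.11, -0.89, -0.42 and 0.42, so the brightest does not show the larger drops. Ankrd37 differed by 0.12 and Zfp395, a zinc-finger protein gene, by 0.29.

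The probe sets of the targets were also counted without a choice of 1 per gene. Of 97 target probe sets above the filter, 83 were lower. Of 25 targets with several such probe sets, 19 were lower on every one of them. The same shares over all probe sets and all genes were not computed, so these counts have no background beside them. With spike-in scaling 36 of the 50 targets were lower, where 22.8% of all genes were, and their median of -0.14 lay 0.32 below that of all genes. As reported, it lay 0.33 below. The ACGTG core stood upstream of 54.8% of the 42 targets with a window and of 25.5% of 9218 genes above the filter with one. It stood upstream of 8 of 15 targets with a window that were at least 1.5-fold lower (53.3%), a share close to that of all targets. The list was made of genes known to be induced by HIF, so its share of the core is no result of these arrays.

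**Figure D5:**
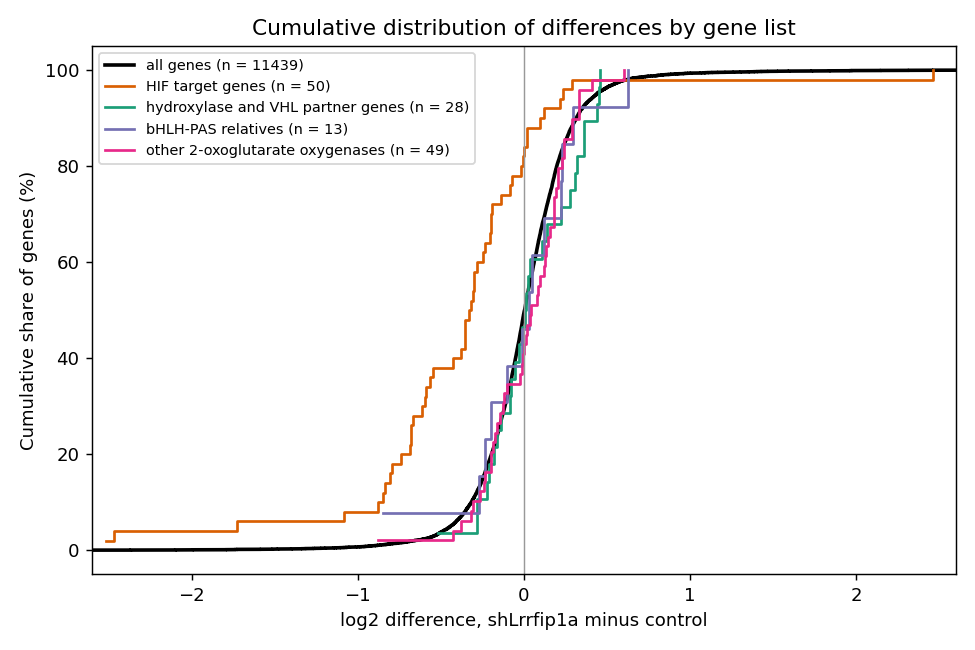
Cumulative share of genes (%) at or below each difference (log2, shLrrfip1a minus control) for all 11439 genes above the filter and for 4 gene lists. The curve of the 50 HIF targets lies to the left of that of all genes over most of its course (medians -0.32 and 0.00), and the other 3 lists have medians of 0.01 to 0.04 (0.19 to 0.21 with spike-in scaling).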

How the data were processed

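Total RNA of 2 cultures was read on Affymetrix arrays, 1 per group, from 6 ug each per the labels' protocols. The authors deposited 1 linear intensity per probe set and array. Neither the summary method nor the background correction, scaling or detection calls behind them is given in the sources used here, and no probe set could be called absent. The number of arrays limits the precision. Of 34958 probe sets with 1 symbol in the platform annotation, 34741 matched GRCm38.p6 genes by gene identifier.

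Python 3.11.15, numpy 2.4.6, pandas 2.3.3 and statsmodels 0.14.6 were used. A pseudocount of 16 was added before log2. Each gene was read from its brightest probe set (by mean on the log2 scale), and list symbols were matched through RefSeq names and unique synonyms. Named were every member probe set, Lrrfip1, and in each list the genes past 2-fold and the 4 (HIF targets 12) with the largest difference. Genes named beyond this were chosen after their values were seen. The calling was tested on simulated data, with changes well past 2-fold in bright probe sets. Calls near 2-fold or near the filter were not tested in this way. Alternatives were 4 scalings, 2 filters, the mean over probe sets, 2 pseudocounts and thresholds of 1.5-fold and 3-fold. The members and lists were chosen with earlier results of these data known. Protein sequences were not analysed here.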

Additional observations from a re-analysis of the deposited data

How the results depend on the processing

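No paired analysis was possible because the groups hold 1 array each, and no array can be left out. With the 1.5-fold threshold, 17 HIF targets were lower in place of 4, and 1 bHLH-PAS relative and 1 other oxygenase were called in each direction in place of 0. Of all genes above the filter, 2.47% were that much lower and 2.34% higher. The lower oxygenase, P4ha2, is also 1 of the 17 targets. With the 3-fold threshold, 1 Egln3 probe set was called in place of 2. With the mean over all probe sets of a gene, 2 targets were at least 2-fold lower in place of 4. Car12 (mean -0.88) and Ero1a (-0.85) dropped out, and 2 of the 3 Car12 probe sets are below the level filter. The count was 3 with spike-in scaling or a pseudocount of 64 (without Ero1a), 3 with the 75th percentile filter (without Car12) and 5 with a pseudocount of 1 (with Adm at -1.06). Spike-in scaling left 9 targets at least 1.5-fold lower in place of 17, while the share of all genes fell from 2.47% to 1.53%. It also changed the 2-fold calls over all genes from 76 higher and 79 lower to 121 and 54. A pseudocount of 64 gave 51 and 44, and 1 gave 96 and 105. Of 180 values of single member probe sets under another setting, 178 stayed within 0.23, the robust spread of all gene differences. The other 2 are those of the dimmer Epas1 probe set with pseudocounts of 1 and 64.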

Other observations

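The nearest measured protein-coding genes to Egln3 in the RefSeq order did not share its difference. On one side lie Npas3 (161 against 98.8, 0.63), Akap6, which encodes an anchor of protein kinase A in muscle (203 against 251, -0.28), and Arhgap5 (888 against 887, 0.00). On the other side Sptssa, a subunit regulator of sphingolipid synthesis, read 962 against 1015 (-0.08), Eapp 360 against 379 (-0.07) and Snx6, a sorting nexin, 850 against 894 (-0.07). Next to Egln2 among such genes lay the cytochrome P450 gene Cyp2f2. It read 123 against 24.3 (1.78), from a single probe set that was dim in the control. These neighbours were examined after the values of the members were seen, and with 1 array per group their differences have no replicate check.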
